A study of Homo sapiens with 6 samples.

Results

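The genes that carry cells through G2 and mitosis were examined in PC-3 tumors from vehicle-treated and WCE-treated mice. The 45 genes were chosen by name for their known functions, by a rule that names no measured value but with earlier results of these data known, and each was found by its symbol among the 24000 gene entries of the deposited table. PC-3 cells come from a human prostate cancer and grow without androgens, and the tumors were xenografts in nude mice, which lack T cells and keep myeloid cells, fibroblasts and vessels of their own. WCE is a standardized ethanol extract of the herb Wedelia chinensis whose main active compounds are luteolin, apigenin and wedelolactone, and the study asked whether and how it acts on prostate tumors that no longer respond to hormone therapy. The vehicle group and the WCE group each held 3 tumors, all from the PC-3 line and all labeled with a treatment of 10 weeks. The labels give neither a dose nor the age of the mice. According to the study's methods, PC-3 cells carrying a luciferase reporter were placed in the anterior prostate of male athymic mice, and WCE was given daily by gavage.

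RNA was measured as FPKM, that is fragments per kilobase of transcript, with scaling by the number of mapped fragments, in 1 table made by the authors. All comparisons below use log2(FPKM + 1), so a fold change on this scale slightly understates the change of a low gene. The table holds no read counts, and depth is known only relative to the other tumors. With vehicle replicate 3 set to 100%, depth in the other tumors ran from 25% (WCE replicate 1) to 85.2% (WCE replicate 2). The libraries of vehicle replicate 3 and WCE replicate 1 were nearly identical. Over the 1915 entries with a mean of at least 50 FPKM their median absolute log2 difference was 0.028, while the other 14 pairs had 0.096 to 0.25, and 0 entries were above 0 in WCE replicate 1 and at 0 in vehicle replicate 3. Since these libraries carry different labels, the comparison of the groups is also given without them. Epithelial keratin genes and EPCAM were high in every tumor, with a summed level of 1146 to 1447 FPKM for 5 markers, while KLK3 and KLK2, genes of the differentiated prostate, were listed at 0 throughout.

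Progress into mitosis depends on CDK1, a kinase that is active only when bound to cyclin A or cyclin B. Its targets condense the chromosomes and build the spindle, and the spindle checkpoint holds the cell until each kinetochore is attached to microtubules. The anaphase-promoting complex, a ubiquitin ligase, then destroys cyclin B and securin so that sister chromatids part and the cell divides. The mRNAs of these proteins are made mainly in late S phase and G2 under the MuvB complex with B-MYB and FOXM1, and they are repressed in resting cells by the DREAM complex. In prostate cancer, as in other cancers, their summed level is widely used as a readout of how many cells are cycling. In RNA from whole tumors, fewer cycling cells and less RNA per cell cannot be told apart.

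The 45 genes were well expressed. All 45 passed the filter of a mean of 0.5 FPKM, 40 lay above the median of the 13287 entries tested, which was 10.7 FPKM, and their own median was 28.2 FPKM. Mean levels over the 6 tumors ran from 4.46 FPKM for ASPM, a spindle pole protein, to 245 FPKM for CKS1B, a small subunit of CDK1 complexes. FPKM is scaled to transcript length, so these levels can be set beside each other. The 6 genes over 100 FPKM were CKS1B, CKS2, UBE2C, CDK1, PTTG1 and BIRC5 and the 5 genes under 10 FPKM were CENPE, CDC25C, KIF20B, NCAPG and ASPM. BUB3, CDC20, CCNB1, SMC4, ECT2, TPX2 and CDC25B followed below 100 FPKM in that order, and each of these 7 overlapped with the next in its range over the 6 tumors. The listed locus was shared with another entry for 10 of the 45 genes (CKS1B, CKS2, SMC4, FOXM1, ANLN, BUB1B, PLK1, CCNA2, KIF20A and NCAPG), and BUB1B was listed as 1 entry together with PAK6. Reads of these genes could have been split between entries.

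Tumors of the vehicle group differed from each other in these genes. Vehicle replicate 1 was above the mean of the 6 tumors in 45 of 45 genes, against 51.6% of the entries tested, and it was the highest tumor in 35 of 45, against 28.4%. It exceeded vehicle replicate 3 in 45 of 45 genes and vehicle replicate 2 in 40 of 45, where 51.7% and 51.1% of all entries did so. The median difference on the log2 scale was 0.45 from vehicle replicate 3 and 0.37 from vehicle replicate 2, and the largest were 0.86 for CCNB1 and 0.84 for KIF20A. By the median deviation from the gene mean, WCE replicate 2 was next, at 0.13 on the log2 scale, after 0.33 in vehicle replicate 1. It lay above WCE replicate 3 in 40 of 45 genes, with 53.5% of all entries, and by a median of 0.16. WCE replicate 1 was higher than WCE replicate 2 in 3 of 45 genes, against 47% of all entries. Summed over the 45 genes, the level was 2658, 2168 and 1853 FPKM in vehicle replicates 1, 2 and 3 and 1853, 2164 and 2035 FPKM in WCE replicates 1, 2 and 3. The groups therefore overlapped, with the highest sum in a vehicle-treated tumor and nearly equal lowest sums in 1 tumor of each group. Those lowest sums belonged to the nearly identical libraries, vehicle replicate 3 and WCE replicate 1. Without them the sums were 2658 and 2168 FPKM with vehicle and 2164 and 2035 FPKM with WCE. These did not overlap, but the nearest were almost equal. By the median deviation the groups still overlapped, with 0.13 in WCE replicate 2 above −0.033 in vehicle replicate 2. Vehicle replicate 1 was singled out after its values had been seen.

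**Figure D1:**
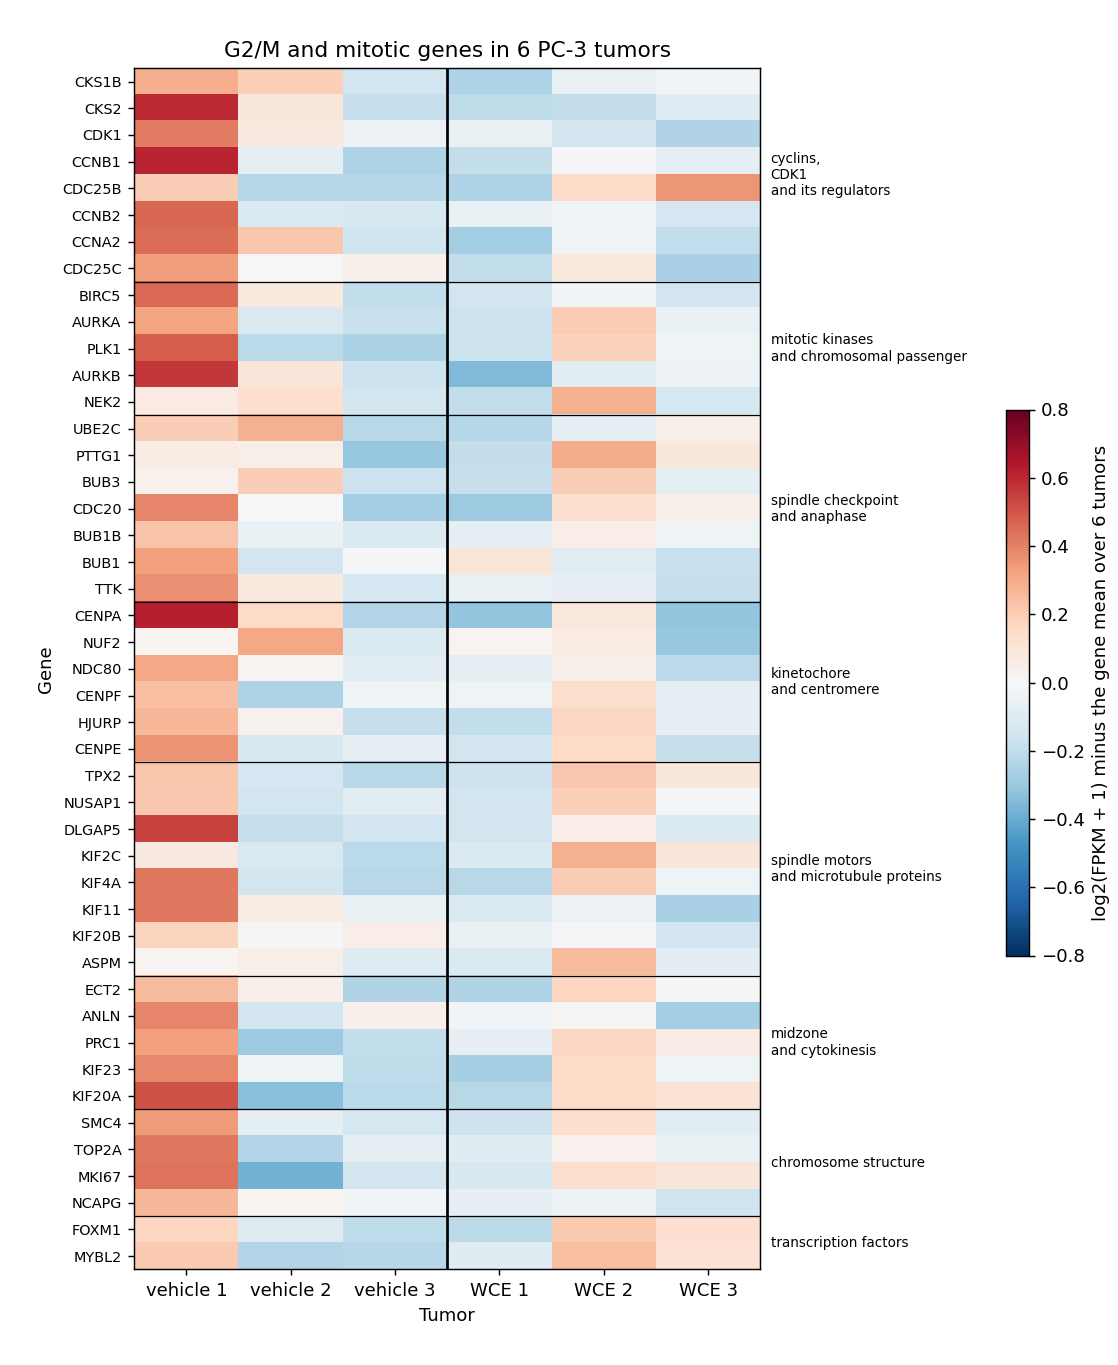
Each row is 1 of the 45 genes, grouped by role, and each column 1 of the 6 tumors. Color gives log2(FPKM + 1) minus the mean of the gene over the 6 tumors. Vehicle replicate 1 is above the gene mean in all 45 rows, and the columns of vehicle replicate 3 and WCE replicate 1 are nearly alike.

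The pair of nearly identical libraries was also close in these genes. WCE replicate 1 was higher than vehicle replicate 3 in 19 of 45, the median difference was −0.0043 on the log2 scale, and the largest was 0.23, for CDC25C. The median absolute difference was 0.051, whereas it ranged from 0.13 to 0.47 for the other 14 pairs of tumors. The spread within a group was wider for vehicle, with a median SD of 0.25 on the log2 scale against 0.16 for WCE, and 38 of 45 genes had the larger SD in vehicle-treated tumors. The share of all entries with the larger SD in vehicle was not computed. Over the entries with a mean of at least 50 FPKM, the median absolute log2 difference between tumors was also larger within vehicle (0.15 to 0.24) than within WCE (0.096 to 0.17). The wider spread was therefore not particular to the 45 genes.

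The genes varied together across the tumors. Over the 990 pairs of genes the median Pearson r across the 6 tumors was 0.69, and 97.5% of pairs had a positive r. This describes 6 tumors that differ in depth and include the nearly identical libraries. It rested in part on vehicle replicate 1, without which the median r was 0.43 and 74.1% of pairs were positive. The genes that followed the rest least were NUF2, an outer kinetochore protein, with an r of 0.16 to the mean of the other 44 genes, and ASPM and BUB3, each with 0.50. NUF2 had 25.7, 31.8 and 23.4 FPKM in vehicle replicates 1 to 3 and 25.9, 26.7 and 20.5 FPKM in WCE replicates 1 to 3. Its highest tumor was vehicle replicate 2, and its partner in the same complex, NDC80, was instead highest in vehicle replicate 1.

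Marker genes of other cell types also differed between the tumors. Among the 7 myeloid markers, the summed level was lowest in vehicle replicate 1 (367 FPKM) and WCE replicate 2 (582 FPKM) and was 926 to 1596 FPKM in the other 4 tumors. Nearly all of that sum came from S100A9 and S100A8, while the defining markers PTPRC, CSF1R, CD14 and ITGAM had means under 1 FPKM. Over the groups the sum spanned 367 to 1596 FPKM in vehicle-treated and 582 to 1594 FPKM in WCE-treated tumors. Of 5 endothelial markers, CDH5, VWF and TEK were under 1 FPKM, and the sum was 1.2 FPKM in vehicle replicate 1, 3.37 and 3.25 FPKM in the other vehicle-treated tumors and 3.21, 3.73 and 7.6 FPKM in WCE replicates 1, 2 and 3. The endothelial sum did not follow the order of the mitotic genes. Vehicle replicate 1 and WCE replicate 2, with the highest median of those genes, had the lowest myeloid and the lowest fibroblast sums. S100A9 and S100A8 were each lowest in these tumors. CD68, the other myeloid marker over 1 FPKM, was lowest in vehicle replicate 1, at 25.3 FPKM. In WCE replicate 2 CD68 stood at 39.6 FPKM, within the 30.4 to 43.9 FPKM of the remaining tumors. Of 6 fibroblast markers, 3 were over 1 FPKM. Their sum was lowest in WCE replicate 2, at 12.8 FPKM, and next in vehicle replicate 1, at 42.1 FPKM. It reached at most 56.4 FPKM in the others. Most of it was COL1A1, while LUM was instead highest in vehicle replicate 1, at 3.15 FPKM. These entries carry human gene symbols, while host cells in the xenografts are of the mouse. Whether the marker levels came from host cells, from tumor cells or from reads matched across species was not tested. The part of other cell types in the levels of the mitotic genes was not tested either.

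Because the genes varied together, their promoters were read for the elements through which MuvB and NF-Y act. The cell cycle homology region was searched as TTTGAA or TTCGAA and the NF-Y box as CCAAT, on both strands, in RefSeq windows (GRCh38.p14) from 250 bases before to 50 bases after the start of transcription. Windows were found for 38 of the 45 genes, and not for AURKA, BIRC5, BUB3, FOXM1, TPX2, TTK and UBE2C. TTTGAA or TTCGAA stood in a window of 29 of the 38 genes, or 76.3%, against 19.5% of the 27305 genes with a window. CCAAT was found in 29 of 38, against 39.7%, and both together in 23 of 38, or 60.5%, against 7.85%. The searched letters of different elements overlapped in 1 of 49 windows. Of 55 mitotic genes outside the 45 with a window, 39 (70.9%) held TTTGAA or TTCGAA, 40 held CCAAT and 30 (54.5%) held both. The elements were thus nearly as common in other mitotic genes. Of 33 G1/S and replication genes with a window, 3 held TTTGAA or TTCGAA and 21 held CCAAT. The 250 bases before the start are shown for the kinase and cyclins at the center of the list and for 3 genes that act with them. Capitals mark matches in either direction, so that TTCAAA is TTTGAA and ATTGG is CCAAT on the other strand.
CDK1, chr10:60778228-60778477, plus strand: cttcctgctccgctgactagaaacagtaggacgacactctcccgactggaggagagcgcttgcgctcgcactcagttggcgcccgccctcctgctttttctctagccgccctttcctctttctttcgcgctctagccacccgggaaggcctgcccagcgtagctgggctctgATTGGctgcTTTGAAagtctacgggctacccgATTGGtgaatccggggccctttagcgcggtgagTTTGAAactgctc
CCNB2, chr15:59104896-59105145, plus strand: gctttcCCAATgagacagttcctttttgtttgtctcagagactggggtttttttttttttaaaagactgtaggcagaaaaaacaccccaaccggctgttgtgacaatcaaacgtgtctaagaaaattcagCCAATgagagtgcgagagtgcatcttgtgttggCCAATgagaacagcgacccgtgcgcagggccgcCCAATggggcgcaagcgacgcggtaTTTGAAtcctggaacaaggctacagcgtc
CKS1B, chr1:154974431-154974680, plus strand: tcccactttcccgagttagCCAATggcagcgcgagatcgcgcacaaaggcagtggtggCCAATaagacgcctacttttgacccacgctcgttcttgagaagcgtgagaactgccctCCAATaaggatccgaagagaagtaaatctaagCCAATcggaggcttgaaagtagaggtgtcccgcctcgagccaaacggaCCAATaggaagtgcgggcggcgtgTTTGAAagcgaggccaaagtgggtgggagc
CDC20, chr1:43358731-43358980, plus strand: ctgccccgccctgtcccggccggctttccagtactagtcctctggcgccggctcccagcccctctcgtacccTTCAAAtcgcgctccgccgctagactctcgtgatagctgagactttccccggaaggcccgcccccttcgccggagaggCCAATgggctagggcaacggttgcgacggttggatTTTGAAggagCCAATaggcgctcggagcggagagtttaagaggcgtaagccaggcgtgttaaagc
PLK1, chr16:23678639-23678888, plus strand: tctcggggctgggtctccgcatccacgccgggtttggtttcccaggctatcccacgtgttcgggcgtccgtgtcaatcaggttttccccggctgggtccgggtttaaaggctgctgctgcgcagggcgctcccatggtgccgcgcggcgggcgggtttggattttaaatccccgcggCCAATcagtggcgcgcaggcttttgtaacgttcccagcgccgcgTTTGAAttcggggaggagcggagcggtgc
CCNB1, chr5:69166900-69167149, plus strand: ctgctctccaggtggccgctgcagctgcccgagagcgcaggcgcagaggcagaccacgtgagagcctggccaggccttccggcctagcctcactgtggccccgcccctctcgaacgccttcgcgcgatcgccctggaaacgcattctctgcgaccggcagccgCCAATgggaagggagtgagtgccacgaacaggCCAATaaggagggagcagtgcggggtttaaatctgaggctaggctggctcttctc
CCNB2, CKS1B and PLK1 each carry 1 TTTGAA close to the start, 29, 30 and 29 bases before it, with CCAAT boxes upstream. CDC20 and CDK1 carry further copies (CDK1 has another listed start, not shown), and CCNB1 has CCAAT without either form of the cell cycle element in this window. The difference between vehicle replicate 1 and vehicle replicate 3 had a median of 0.46 on the log2 scale in the 29 genes with TTTGAA or TTCGAA and of 0.43 in the 9 genes without it. These matches are letters in a window and do not show binding.

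The comparison of WCE-treated with vehicle-treated tumors asked whether mitotic genes were lower under WCE. With limma over all 13287 entries, 0 of the 45 mitotic genes passed an adjusted p of 0.05 and 0 passed the same threshold unadjusted, where 0.00753% and 7.1% of all entries did. An unmoderated test also called 0, against 4.46% of all entries. The lowest adjusted p was 0.623 (Benjamini-Hochberg). The log2 fold change was below 0 in 33 of 45 genes and above 0 in 12, against 51.4% of all entries below 0, and the median log2 fold change was −0.082, against −0.0063 over all entries. The groups did not overlap, with all WCE-treated tumors lower, in CDK1 and NCAPG (2 of 45, against 6.4% of all entries), and in 0 of 45 with WCE higher, against 6.37%. The 95% intervals had a median extent of 0.36 to either side. Over the 45 genes they reached from −0.87 at the lowest to 0.60 at the highest. With all 6 tumors no interval therefore included a halving or a doubling, while 17 reached a log2 fold change of −0.5 and 5 reached 0.5. Intervals were not computed for the fits with tumors left out, and the limit may not hold there. CENPA, for example, moved to −0.57 (SE 0.19) without vehicle replicate 3 and to −0.50 without both nearly identical libraries.

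**Figure D2:**
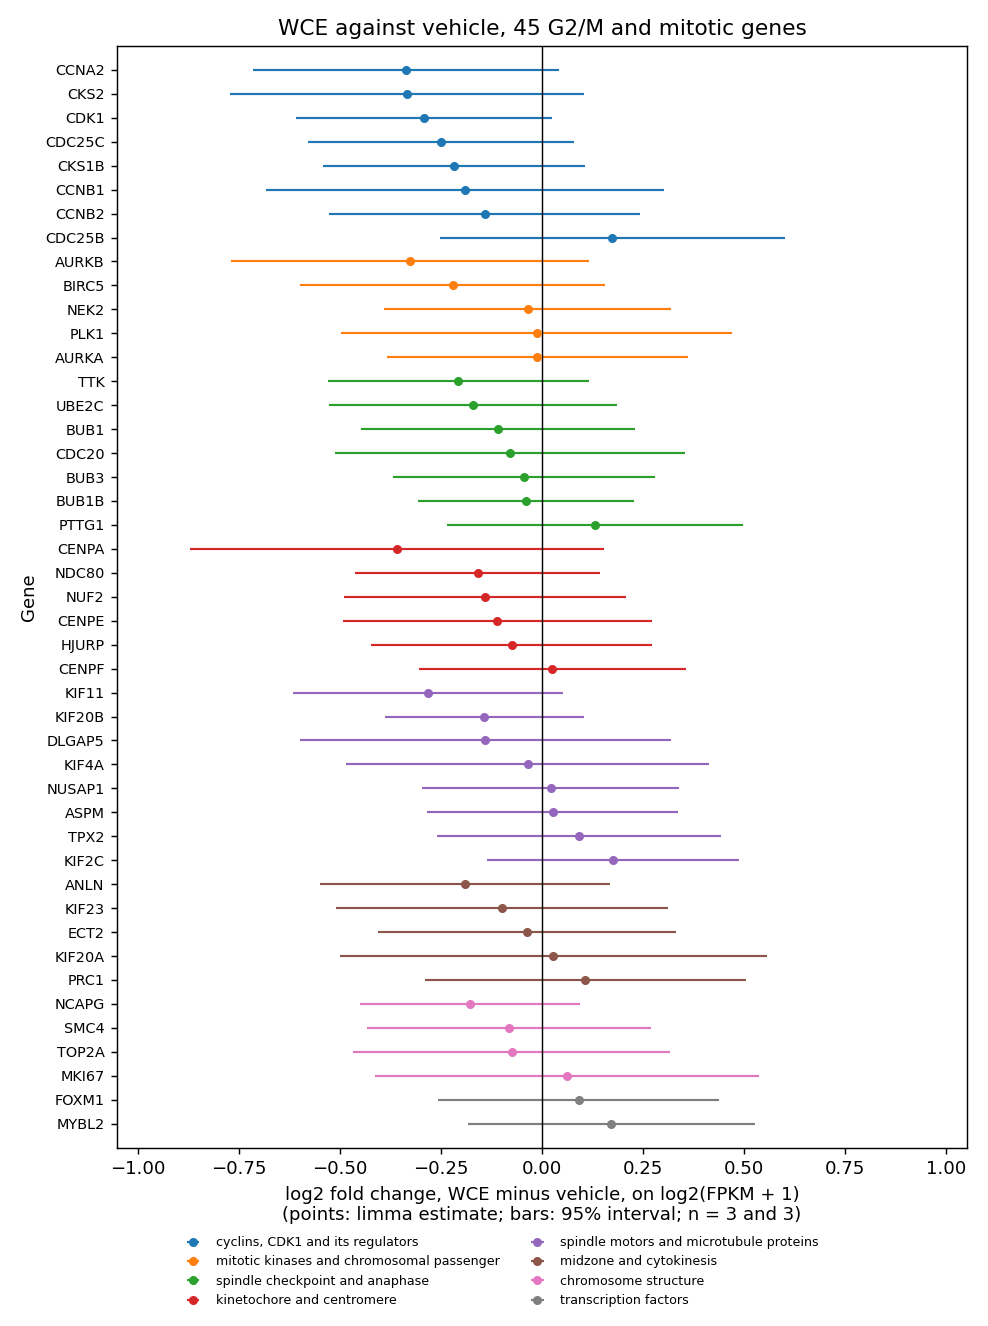
Points are log2 fold changes (WCE minus vehicle, log2(FPKM + 1) scale) of the 45 genes by limma, bars their 95% intervals, and colors the role groups. All 45 intervals include 0, and 33 of 45 points lie below it.

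Cyclins, CDK1 and its regulators had the lowest median of the 8 role groups, −0.23, with 7 of 8 genes lower and 0 under an unadjusted p of 0.05. CDK1, the mitotic kinase itself, listed on chromosome 10 from 62538089 to 62554610 in the table (the submitters' notes name hg19 as the human build), was at 185, 146 and 134 FPKM in vehicle replicates 1 to 3 and at 134, 125 and 117 FPKM in WCE replicates 1 to 3. The groups did not overlap, and the nearest values, 134.4 in vehicle replicate 3 and 134.0 in WCE replicate 1, belonged to the nearly identical libraries. Its log2 fold change was −0.29 (standard error, SE, 0.14, 95% interval −0.61 to 0.024, unadjusted p = 0.0657 and adjusted p = 0.623 by limma). CCNA2, the cyclin of S phase and early mitosis, was listed on chromosome 4 from 122722472 to 122745088, a locus shared with the entry of EXOSC9. CCNA2 had 22.0, 18.5 and 14.1 FPKM in vehicle replicates 1 to 3 and 12.9, 15.5 and 13.7 FPKM in WCE replicates 1 to 3. WCE replicate 2 was above vehicle replicate 3, and the log2 fold change was −0.34 (SE 0.16, 95% interval −0.71 to 0.042, unadjusted p = 0.0739 by limma).

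CCNB1, the main mitotic cyclin on chromosome 5 from 68462837 to 68474070, averaged 66.0 ± 22.4 FPKM with vehicle and 55.8 ± 3.49 FPKM with WCE (SD, n = 3 each). Vehicle replicate 1, at 91.6 FPKM, stood apart from the other 5 tumors, which lay between 50.03 and 58.9 FPKM. Its log2 fold change was −0.19 with a 95% interval of −0.68 to 0.30. CCNB2, a cyclin of the Golgi, was alike in this, with 41.4 FPKM in vehicle replicate 1 and 27.0 to 29.4 FPKM elsewhere. The CDK1-binding proteins were the most abundant of all 45. CKS1B had 264 ± 41.3 and 225 ± 18.2 FPKM and CKS2 had 242 ± 68.9 and 187 ± 7.03 FPKM in vehicle- and WCE-treated tumors (SD, n = 3 each), and in both genes the groups overlapped. The phosphatases that activate CDK1 differed from each other. CDC25C had 6.14 ± 0.932 and 5.01 ± 0.771 FPKM, whereas CDC25B had a higher mean with WCE, 53.0 ± 10.96 against 46.6 ± 8.41 FPKM (SD, n = 3 each). CDC25B was the 1 gene of the 45 that was highest in WCE replicate 3, at 62.9 FPKM.

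**Figure D3:**
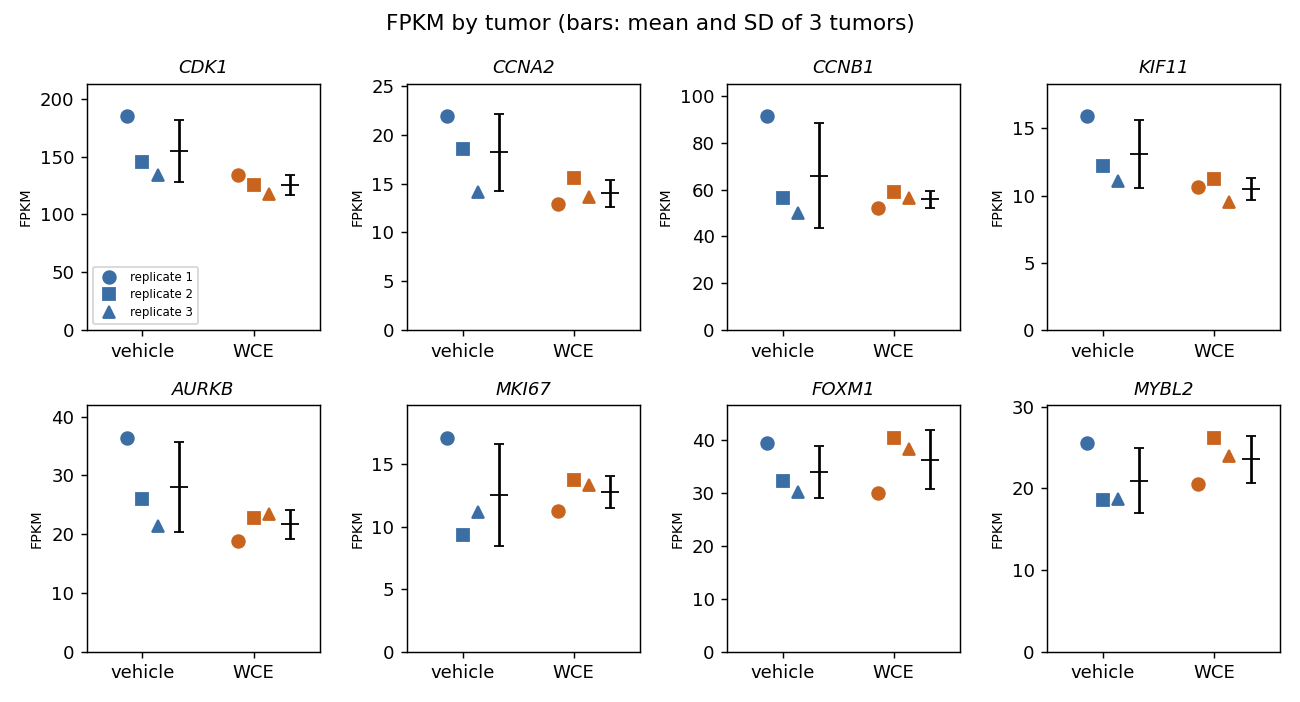
FPKM of 8 genes in each tumor, with vehicle in blue and WCE in orange, markers for replicates 1 to 3, and black bars for the mean and SD of 3 tumors. In CCNB1 a high value in vehicle replicate 1, 91.6 FPKM, sets the vehicle mean apart, and CDK1 is the 1 gene of the 8 whose groups do not overlap.

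Mitotic kinases and the chromosomal passenger survivin had lower means with WCE in 5 of 5 genes, with a median of −0.035. AURKB, the passenger complex kinase that corrects kinetochore attachments, had 36.4, 26.0 and 21.4 FPKM in vehicle replicates 1 to 3 and 18.8, 22.7 and 23.5 FPKM in WCE replicates 1 to 3. Its log2 fold change of −0.33 came with an SE of 0.19 (unadjusted p = 0.126 by limma), and BIRC5, survivin, had −0.22 with an SE of 0.16. Both genes were highest in vehicle replicate 1. For PLK1, which drives mitotic entry and spindle formation, and AURKA, the kinase of the spindle poles, the estimates were near 0. PLK1 had 29.3 ± 9.32 and 28.3 ± 3.71 FPKM (SD, n = 3 each), a log2 change of −0.013 with a 95% interval of −0.50 to 0.47, and AURKA one of −0.011 with an interval of −0.38 to 0.36. NEK2, a centrosome kinase, was highest in WCE replicate 2, at 15.4 FPKM, and between 10.8 and 13.8 FPKM in the other tumors.

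Spindle checkpoint and anaphase genes had lower means in 6 of 7, with a median of −0.079. TTK, the kinase that starts the checkpoint, was at 16.9, 13.7 and 11.7 FPKM in vehicle replicates 1 to 3 and at 12.3, 12.3 and 11.2 FPKM in WCE replicates 1 to 3, which is a log2 change of −0.21 (SE 0.14, unadjusted p = 0.176 by limma). BUB1, which recruits checkpoint proteins to kinetochores, had −0.11 and CDC20, the activator of the anaphase-promoting complex, had −0.079, with 64.7 ± 15.3 and 60.5 ± 8.99 FPKM (SD, n = 3 each). UBE2C, the ubiquitin-conjugating enzyme of that complex, had 225, 238 and 168 FPKM in vehicle replicates 1 to 3 and 167, 185 and 203 FPKM in WCE replicates 1 to 3, a log2 change of −0.17 with an interval of −0.53 to 0.18. PTTG1, securin, was the exception with a higher mean, at 133 ± 18.4 and 146 ± 24.4 FPKM, and was highest in WCE replicate 2. BUB3 and BUB1B, checkpoint proteins that restrain CDC20, had nearly equal means, 89.6 ± 11.5 and 87.0 ± 12.2 FPKM for BUB3 and 31.0 ± 4.15 and 30.0 ± 1.38 FPKM for BUB1B (SD, n = 3 each). In every one of these genes the groups overlapped.

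Of 6 kinetochore and centromere genes, 5 had lower means with WCE. CENPA, the histone variant that marks centromeres, had the lowest log2 fold change of all 45 genes, −0.36, with a 95% interval of −0.87 to 0.15 (unadjusted p = 0.143 by limma). It was at 43.9, 31.4 and 23.8 FPKM in vehicle replicates 1 to 3 and at 22.5, 29.9 and 22.5 FPKM in WCE replicates 1 to 3, so that WCE replicate 2 lay above vehicle replicate 3. HJURP, the chaperone that loads CENPA, differed less, with 12.97 ± 2.16 and 12.2 ± 1.75 FPKM (SD, n = 3 each). NDC80, which binds microtubules, had −0.16 with an interval of −0.46 to 0.14. CENPE, a kinetochore motor that moves chromosomes to the equator, spanned 5.09 to 7.86 FPKM. CENPF, a large kinetochore protein of G2 cells, had 0.025 with an interval of −0.30 to 0.36.

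Spindle motors and microtubule proteins were lower in 4 genes and higher in 4. KIF11, the motor that separates the spindle poles and a target of antimitotic compounds, was at 15.9, 12.2 and 11.1 FPKM in vehicle replicates 1 to 3 and at 10.7, 11.2 and 9.56 FPKM in WCE replicates 1 to 3. Its log2 fold change was −0.28 (SE 0.14, 95% interval −0.62 to 0.052, unadjusted p = 0.0870 by limma), and WCE replicate 2 overlapped with vehicle replicate 3. TPX2, which activates AURKA on the spindle, had 0.092 with an interval of −0.26 to 0.44. KIF2C, a motor that takes microtubules apart, had the highest positive estimate of the 45 genes and was at 21.6, 18.7 and 17.5 FPKM in vehicle replicates 1 to 3 and at 18.8, 25.2 and 21.9 FPKM in WCE replicates 1 to 3. The high tumor was WCE replicate 2. DLGAP5, a microtubule-bundling protein of the spindle, stood at 43.3 FPKM in vehicle replicate 1 and at 25.7 to 30.4 FPKM in the other 5 tumors, and KIF4A, a chromosome-bound motor, at 20.7 FPKM against 12.9 to 17.6 FPKM. NUSAP1, which bundles microtubules near chromosomes, varied less, from 32.4 to 42.1 FPKM, and KIF20B, a motor of late mitosis, from 4.67 to 6.12 FPKM.

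Among the 5 midzone and cytokinesis genes, 3 had log2 fold changes below 0 and 2 above. ANLN, which scaffolds the contractile ring, had 36.9 ± 7.31 and 31.9 ± 3.39 FPKM (SD, n = 3 each), a log2 change of −0.19 with an SE of 0.15. KIF20A, a midzone motor, was nearly equal in mean, at 13.4 ± 4.86 and 13.2 ± 1.92 FPKM, although single vehicle-treated tumors ranged from 10.1 to 19.0 FPKM. PRC1, which bundles midzone microtubules, reached 35.4 FPKM in vehicle replicate 1, with 22.6 and 24.2 FPKM in the other vehicle-treated tumors and 26.6 to 31.4 FPKM with WCE. ECT2, the exchange factor that starts furrowing, and KIF23, the motor that brings its activator to the midzone, spanned 44.6 to 63.4 and 16.8 to 27.0 FPKM. All 5 genes of this group were highest in vehicle replicate 1. Of the 4 chromosome structure genes, NCAPG, a condensin subunit, was lower in each WCE-treated tumor, with 6.38, 5.20 and 5.05 FPKM in vehicle replicates 1 to 3 and 4.85, 4.96 and 4.48 FPKM in WCE replicates 1 to 3. The difference was small, with a log2 change of −0.18 (SE 0.12, unadjusted p = 0.169 by limma). MKI67, the gene of the Ki-67 antigen, had 17.1, 9.32 and 11.2 FPKM in vehicle replicates 1 to 3 and 11.3, 13.7 and 13.4 FPKM in WCE replicates 1 to 3. Both its highest and its lowest tumor were vehicle-treated, and the log2 fold change was 0.062 with an interval of −0.41 to 0.54. SMC4, a core condensin subunit, reached 72.8 FPKM in vehicle replicate 1 and lay at 50.9 to 63.1 FPKM elsewhere. TOP2A, the topoisomerase that untangles chromosomes, had −0.075 with an interval of −0.47 to 0.32.

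The transcription factors of the list both had higher means with WCE. FOXM1 had 39.4, 32.3 and 30.1 FPKM in vehicle replicates 1 to 3 and 30.0, 40.5 and 38.4 FPKM in WCE replicates 1 to 3, a log2 change of 0.091 with an interval of −0.26 to 0.44. MYBL2, which encodes B-MYB, had 25.6, 18.6 and 18.7 FPKM in vehicle replicates 1 to 3 and 20.5, 26.2 and 23.9 FPKM in WCE replicates 1 to 3, with 0.17 and an interval of −0.18 to 0.53 (unadjusted p = 0.296 by limma). In neither gene were the groups separated. For both, WCE replicate 2 was the highest of the 6 tumors and vehicle replicate 1 the next.

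The comparison depended on which tumors were kept. Without vehicle replicate 1 the median log2 fold change of the 45 genes was 0.052, 27 of 45 were above 0, and PRC1 and MYBL2 had an unadjusted p under 0.05 with higher means (2 of 45), against 3.18% of all entries in either direction and 1.54% higher. Without vehicle replicate 3 the median was −0.17 and 10 genes had an unadjusted p under 0.05, all lower with WCE, against 13.3% of all entries in either direction and 7.23% lower. These were CCNA2, CDK1, CKS1B, CKS2, AURKB, BIRC5, TTK, UBE2C, CENPA and KIF11. With both nearly identical libraries left out, 4 of 45 were under that threshold and lower (CCNA2, CDK1, CKS1B and CKS2, at −0.44, −0.44, −0.28 and −0.49), where 18.4% of all entries passed in either direction and 9.59% were lower, and the median was −0.11. Leaving out any of the other 4 tumors alone gave 0. Limma array weights, which let each tumor count by its own spread, gave 6 of 45 against 24.1% of all entries, and a replicate block gave 1 (CDK1) against 7.89%. The lowest adjusted p over the comparisons with tumors left out was 0.216. Leaving out vehicle replicate 1 also brought CENPA from −0.36 to −0.14, AURKB from −0.33 to −0.13, BIRC5 from −0.22 to −0.051 and ANLN from −0.19 to −0.043, and CCNA2, at −0.20, was then the lowest of the 45. In fits that each left out 1 tumor, 16 genes stayed below 0, 6 stayed above 0 and 23 changed sign.

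**Figure D4:**
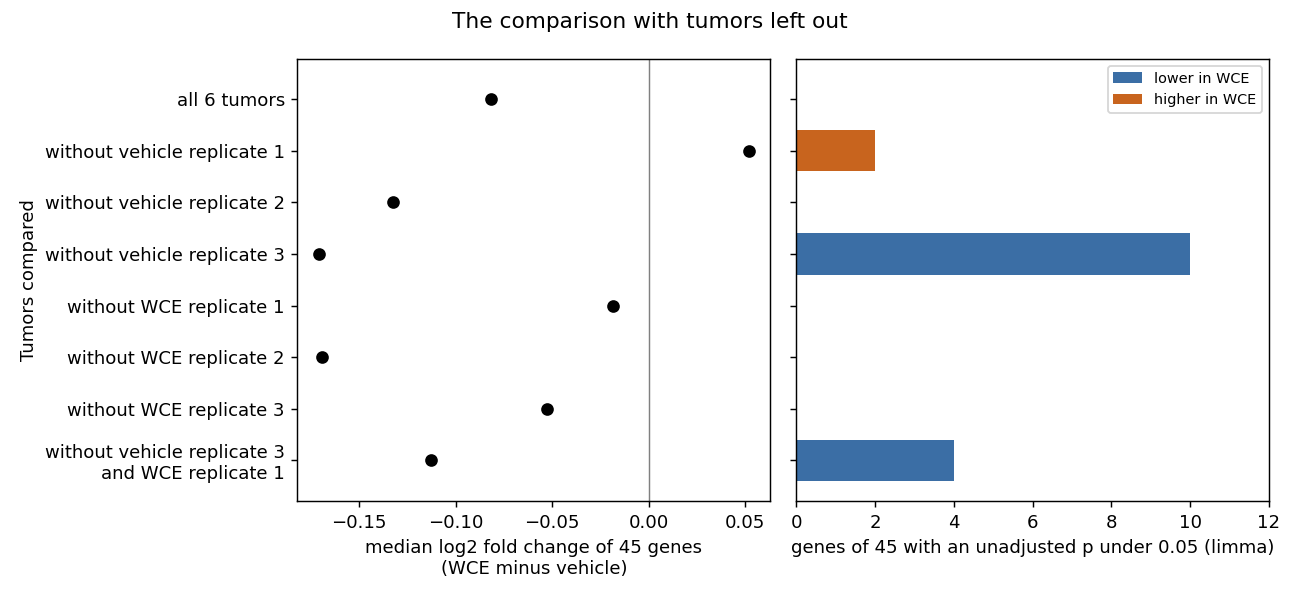
Left, the median log2 fold change of the 45 genes (WCE minus vehicle) with all 6 tumors and with the named tumors left out. Right, how many of the 45 had an unadjusted p under 0.05 by limma, split by direction. The median is above 0 only without vehicle replicate 1, at 0.052, and the highest count, 10, is without vehicle replicate 3.

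Other genes of the cell cycle were described by counts. Of 63 other mitotic genes, 1 was lower (MAD2L1) and 1 higher (TROAP) at an unadjusted p under 0.05, against 3.33% and 3.78% of all entries, and 0 passed the adjustment. The median was −0.097 with 47 of 63 below 0. TROAP, a protein of the spindle and cell adhesion, averaged 31.8 ± 5.38 FPKM with vehicle and 41.5 ± 3.34 FPKM with WCE (SD, n = 3 each). Vehicle replicate 1 was above vehicle replicate 3 in 58 of these 63 genes, in 35 of 40 G1/S and replication genes, in 13 of 16 genes of the anaphase-promoting complex and its partners, in 9 of 16 genes of DREAM, MuvB and NF-Y and in 6 of 13 CDK1 brakes and CDK inhibitors, beside 51.7% of all entries.

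Of the 40 G1/S and replication genes, 4 were lower (ASF1B, ORC6, FEN1 and PCNA) and 0 higher at an unadjusted p under 0.05, against 3.33% and 3.78% of all entries, with a median of −0.097. ASF1B, a histone chaperone of replication, had 40.1 ± 4.62 and 32.3 ± 1.43 FPKM (SD, n = 3 each), with an adjusted p of 0.623. Among the 16 genes of the anaphase-promoting complex and its partners, UBE2S and ANAPC10 were lower and ANAPC5 higher at that threshold, 3 of 16 beside 7.1% of all entries in either direction. UBE2S, which extends ubiquitin chains, had 152, 137 and 102 FPKM in vehicle replicates 1 to 3 and 96.8, 99.6 and 93.3 FPKM in WCE replicates 1 to 3, a log2 change of −0.41 with an SE of 0.15. The groups did not overlap, and the nearest values were those of vehicle replicate 3 and WCE replicate 2. Of the 16 DREAM, MuvB and NF-Y genes 0 passed, and the lowest unadjusted p was 0.0526 by limma, for the MuvB subunit LIN54. Among the 13 CDK1 brakes and CDK inhibitors, CDKN2D was lower and CDKN1B, the inhibitor p27, higher at an unadjusted p under 0.05, 2 of 13 beside the same 7.1%. In all 5 lists 0 genes had an adjusted p under 0.05, and the difference between the lists was not tested.

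**Figure D5:**
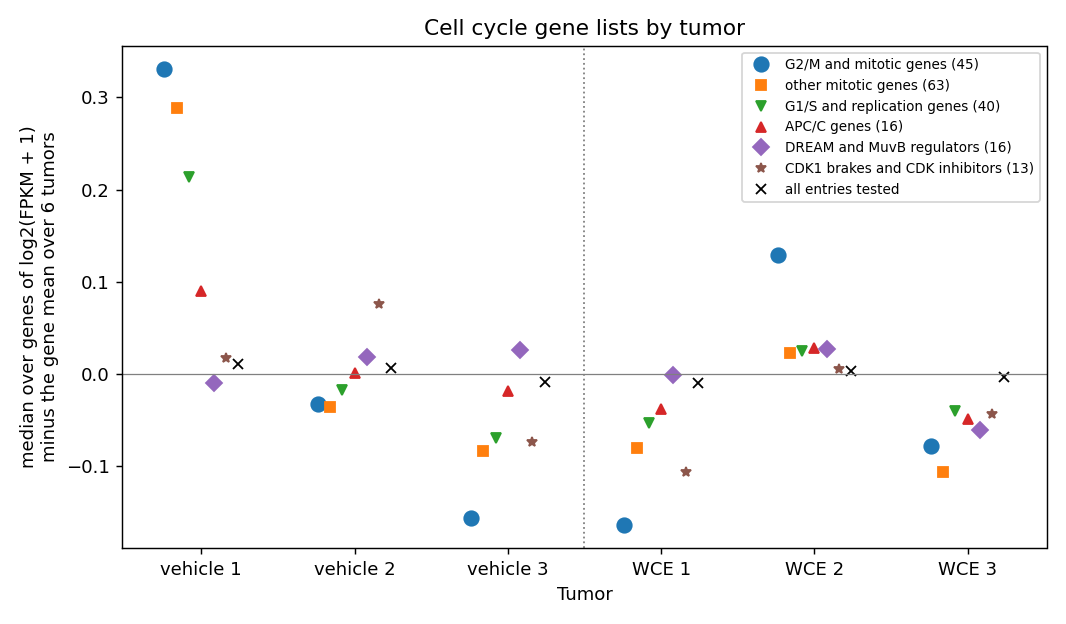
For each list, the point gives the median over its genes of log2(FPKM + 1) minus the gene mean over 6 tumors. In vehicle replicate 1 the G2/M and mitotic genes stand at 0.33, other mitotic genes at 0.29 and G1/S genes at 0.21, while all entries tested stand at 0.011.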

How the data were processed

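RNA from 6 PC-3 xenografts, 3 vehicle-treated and 3 WCE-treated, was sequenced from stranded mRNA libraries. The authors deposited 1 table of FPKM values with a column per tumor, matched to the tumors through the sample labels. The submitters' processing notes name TopHat2 2.0.13, Cufflinks and the builds hg19 and mm10, with no roles. Annotation and scaling between tumors are not given in the sources used here. Loci are those of the table, counted from 1.

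The members and lists were chosen with earlier results of these data known. Older symbols were matched through a RefSeq table. Values were changed to log2(FPKM + 1), and the 13287 of 24000 entries with a mean of at least 0.5 FPKM were fitted with limma 3.58.1 in R 4.3.3 (mean-variance trend, two-sided), with Benjamini-Hochberg adjustment and a threshold of 0.05. With 3 tumors against 3, an exact permutation test cannot go below p = 0.1, so none is given. The labels do not say that each tumor came from a separate mouse, and p-values measure the spread between these samples. The fit was tested on simulated data. Alternatives were another pseudocount, no filter, other scalings, no trend, array weights, an unmoderated test, a replicate block, each tumor left out, and both nearly identical libraries left out. Promoter windows are RefSeq's, on GRCh38.p14, and were matched by symbol. Fold changes are given for 16 preset genes and for the gene with the largest change in each role group. Other members are given by levels, and UBE2S, TROAP, LIN54, CDKN2D and ASF1B as those with the lowest p of their lists. The other list genes under an unadjusted p of 0.05, CDKN1B and the members called without some tumors were chosen once their values had been seen, as were NUF2, ASPM, BUB3, KIF2C and NEK2. Relative depth is the commonest ratio of low FPKM values to those of vehicle replicate 3, which rested on 17 to 43 entries a tumor. Python 3.11.15, numpy 2.4.6, pandas 2.3.3 and matplotlib 3.10.9 were used for the rest. The number of reads per tumor is not known from FPKM, and intervals for counting error were therefore left out.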

Additional observations from a re-analysis of the deposited data

How the results depend on the processing

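The count of the 45 genes with an adjusted p under 0.05 was 0 in every setting run. The count with an unadjusted p under 0.05 was 0 with all 6 tumors, with a pseudocount of 0.1, no filter, median-ratio, upper-quartile or quantile scaling, no mean-variance trend and an unmoderated test. Limma array weights gave 6, with 3 in each direction, where 24.1% of all entries passed, and leaving out vehicle replicate 3 and WCE replicate 1 gave 4. With 1 tumor left out at a time it ran from 0 to 10, and the median log2 fold change from −0.17 to 0.052. Over the 5 other lists together, 11 genes had an unadjusted p under 0.05, where 7.1% of all entries passed. Array weights gave 48, with 24.1% of all entries passing, and the unmoderated test gave 6, with 4.46%. Without the nearly identical libraries the count was 35, with 18.4% of all entries passing. With 1 tumor left out it ran from 0 to 29, the highest without vehicle replicate 3, where 13.3% of all entries passed. For these changes the cause was not tested.

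Adding a replicate block, 1 gene (CDK1) had an unadjusted p under 0.05. Same-numbered tumors were not shown to be paired. Deviations from the group mean correlated at −0.058 on average for equal numbers and at 0.028 for unequal ones. Subtracting the group mean ties these averages to each other, and the unequal pairs include the nearly identical libraries. The averages therefore cannot decide whether tumors were paired. The number of the 45 genes below 0 was 33 with all 6 tumors, 26 with array weights and 30 with quantile normalization. Among the 22 genes whose fold changes are given by rule, the direction turned under array weights in TOP2A (0.050), CDC20 (0.053), PLK1 (0.12) and AURKA (0.061), and with quantile normalization in PLK1 (0.014) and AURKA (0.045). With 1 tumor left out at a time, AURKA ranged from −0.12 to 0.14, BUB1 from −0.21 to 0.028, CCNB1 from −0.36 to 0.068, CDC20 from −0.24 to 0.095, CENPF from −0.092 to 0.15, MKI67 from −0.11 to 0.29, PLK1 from −0.14 to 0.23 and TOP2A from −0.21 to 0.12 in log2 fold change. Low genes are least precise in WCE replicate 1, whose relative depth was 25%.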
